A study of Mus musculus with 6 samples.

Results

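Melanosome transport is represented here by 7 genes, Rab38, Rab32, Rab27a, Mlph, Myo5a, Sytl2 and Mreg, which were taken by name from a table of 22180 measured mouse genes. All 7 were present, each as 1 probe set that carried a single gene symbol. The table came from 6 Affymetrix arrays of immortal melanocyte lines, 3 from the line melan-Ink4a-Arf-1, which is wild type for Sox10 and carries Cdkn2a tm1RDp/tm1RDp, and 3 from a Sox10LacZ/+; Ink4a-Arf null line, called LacZ/+ below. LacZ/+ cells have a LacZ insertion in 1 of the copies of Sox10, a transcription factor gene of the neural crest, and came from mice 3 days old; the age of the mice behind the wild-type line was not given. Both lines therefore lacked Ink4a-Arf, both were on a background backcrossed to C57BL/6J, and both grew in 10% serum with 200 nM of the phorbol ester 12-O-tetradecanoylphorbol 13-acetate and 200 pM cholera toxin. Each genotype was 1 line, so genotype and line cannot be told apart. Replicates were numbered in the titles without saying whether they were separate cultures, and p-values therefore measure only the spread between these arrays.

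Sox10 itself, measured first as a check of the labels, had log2 RMA signals of 9.98, 9.80 and 9.95 in wild-type replicates 1 to 3 and 9.70, 9.70 and 9.79 in those of LacZ/+. All LacZ/+ arrays were lower, but the difference of −0.18 (limma's adjusted p 0.213) did not pass the test, and LacZ/+ stood at 88.2% of wild type. Its 95% interval of −0.37 to 0.005 leaves out a 2-fold fall in the signal of this probe set. Whether the loss of 1 copy that the label names would lower the signal that far was not tested. The check therefore does not decide on the label. Which part of the transcript the probe set covers was not stated, and whether RNA of the LacZ allele is included was not tested. Differences below are between the lines as labelled.

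Melanosomes are lysosome-related organelles in which melanin is made, and melanocytes carry them along microtubules and actin to the cell edge before passing them to keratinocytes. The GTPases Rab38 and Rab32 act early, in the delivery of tyrosinase and related enzymes to the maturing organelle. Rab27a then sits on the mature melanosome and binds melanophilin (Mlph), which in turn binds the actin motor myosin Va (Myo5a), and loss of any of these in mice (ashen, leaden and dilute coats) leaves melanosomes clustered around the nucleus. Sytl2 (Slp2-a) is another Rab27a effector, which tethers melanosomes to the plasma membrane, and Mreg (melanoregulin) is the product of the dilute suppressor locus.

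RefSeq promoter sequences (build GRCm38.p6, the 250 bases before each annotated start) were available for 5 of the 7 genes, with 1 or 2 starts each. They were searched on both strands for CACGTG, which is its own reverse complement, and CATGTG, forms of the E-box that MITF can bind, and for ACAAAG and ACAATG, core letters that SOX proteins can bind. No sequence was available for Rab38 and Sytl2, so these were not searched. The 4 genes that held a match of either kind are shown. The gene altered in LacZ/+ encodes a SOX protein. Among the 5 genes searched, SOX letters were matched only in Mreg (ACAAAG) and Myo5a (ACAATG). Mlph and Rab27a matched the E-box CACGTG. Capitals mark the match. The Mreg window, which lies wholly outside the annotated gene, is given in full; the others are 30 bases around a match, at chr1:72212315-72212564 (minus strand) for Mreg, chr1:90915040-90915069 for Mlph, chr9:73063898-73063927 for Rab27a and chr9:75071144-75071173 for Myo5a (plus strand for these).
Mreg: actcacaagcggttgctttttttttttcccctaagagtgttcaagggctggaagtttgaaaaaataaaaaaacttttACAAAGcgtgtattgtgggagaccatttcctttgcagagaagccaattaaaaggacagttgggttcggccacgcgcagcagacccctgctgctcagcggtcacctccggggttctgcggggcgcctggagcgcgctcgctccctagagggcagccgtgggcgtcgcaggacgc
Mlph: tcaggagtagccCACGTGatctgagccgca
Rab27a: cttgCACGTGctcctccgtctgtctgaacc
Myo5a: cctcccgctcccACAATGcacagggcggcg

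The Mlph match began 48 bases before its start, that of Rab27a 246 bases before the second of its 2 starts, that of Myo5a 50 bases and that of Mreg 173 bases before its first start. The matches of Mlph, Rab27a and Myo5a lay within the span annotated for the gene. Over all 32851 promoter windows of the table, 6.02% held CACGTG, 12.3% CATGTG, 16.5% ACAAAG and 10.7% ACAATG. None of the windows of these 5 genes held CATGTG. A match is a string of letters and shows no binding.

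Across the 7 genes the LacZ/+ line did not move one way. Rab38 and Mlph fell, Rab27a, Sytl2 and Mreg rose, and Rab32 and Myo5a did not pass the test. A gene passed when the Benjamini-Hochberg adjusted p of limma's test, adjusted over all 22180 genes, was below 0.05. Of all genes 13.4% passed, 7.46% higher and 5.92% lower in LacZ/+, against 5 of 7 here, 3 higher and 2 lower. Among the 1715 genes at least as bright as the 6 brighter transport genes, 17.3% passed. Past 2-fold as well were Rab38 and Mreg, against 3.53% of all genes. Wild-type and LacZ/+ arrays were fully separated for 6 of the 7 genes, 3 higher and 3 lower, against 31.6% of all genes (17.0% higher and 14.6% lower). The median difference over the 7 was 0.02 on the log2 scale and the median size of a difference, sign aside, 0.74, against 0.001 and 0.12 over all genes. The genes had been chosen with results of these arrays known, so these shares describe the list and test nothing.

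**Figure D1:**
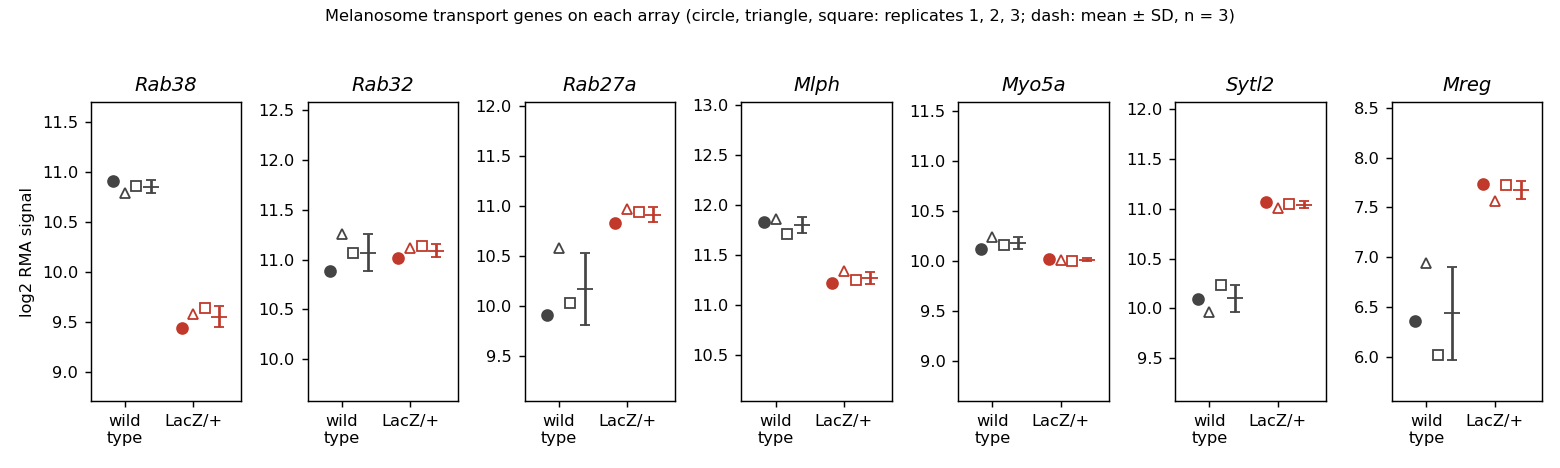
Log2 RMA signal of each transport gene (1 panel per gene, every panel spanning the same number of log2 units) on the 3 wild-type (grey) and 3 LacZ/+ (red) arrays, with mean ± SD beside the points. Wild-type replicate 2 (triangle) is the highest wild-type array for 5 of the 7 genes, most clearly Rab27a and Mreg, and the LacZ/+ points of Rab38 lie 1.15 below the lowest wild-type point.

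Rab38 had the largest fall of the 7. This GTPase, mutated in chocolate mice, sorts tyrosinase and tyrosinase-related protein 1 to melanosomes. Its log2 signal was 10.92, 10.79 and 10.87 in wild-type replicates 1 to 3 and 9.44, 9.58 and 9.64 in those of LacZ/+. Every LacZ/+ array was at least 1.15 below every wild-type array, a gap wider than the range within either line (0.12 and 0.20). The means were 10.86 ± 0.06 and 9.55 ± 0.10 (SD, n = 3 each), so the LacZ/+ signal was 40.5% of wild type (95% confidence interval 35.5% to 46.2%). The log2 difference of −1.30 (SE 0.08) passed limma's test at an adjusted p of 2.52e-05 and ranked 550th by size among all genes.

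Rab32, the close relative that shares much of the work of Rab38, was measured at 10.88, 11.25 and 11.07 in wild type and at 11.02, 11.12 and 11.13 in LacZ/+. The arrays overlapped, with all LacZ/+ values inside the wild-type range. The means were 11.07 ± 0.18 and 11.09 ± 0.06, the log2 difference 0.02 (SE 0.10) and limma's adjusted p 0.931. The 95% interval of −0.22 to 0.26 corresponds to 86.0% to 119.8% of wild type, so a change as large as that of Rab38 lay outside it. Subtracting Rab32 from Rab38 on each array gave a shift between the lines of −1.32 (SE 0.14) on the log2 scale, with no overlap of the arrays.

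That shift was 1 of 6 comparisons between gene pairs, which were chosen with the values known. In an exact 2-sided permutation test of 3 against 3 arrays the smallest possible p is 0.1, which the shift reached (0.12 after Benjamini-Hochberg adjustment over the 6 pairs). The design cannot go below that value for a single quantity, and all members other than Rab32 (exact permutation p 0.8) reached 0.1 on their own.

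The parts of the Rab27a, melanophilin and myosin Va complex differed from each other. Rab27a, the GTPase that recruits the motor, had log2 signals of 9.90, 10.58 and 10.03 in wild type and 10.83, 10.97 and 10.93 in LacZ/+. All LacZ/+ arrays were higher, by at least 0.25, but wild-type replicate 2 stood 0.61 above the mean of replicates 1 and 3. The means were 10.17 ± 0.36 and 10.91 ± 0.07, a difference of 0.74 (SE 0.16, limma's adjusted p 0.0216) or 167% of wild type (95% interval 128% to 218%). Without wild-type replicate 2 the difference was 0.95 (adjusted p 0.000223), and with any other single array left out Rab27a no longer passed, at differences of 0.61 to 0.78 and adjusted p of 0.0617 to 0.0854 (0.000223 to 0.0854 over all alternatives).

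Mlph, the adaptor between Rab27a and the motor, moved the other way. Its log2 signal was 11.83, 11.87 and 11.71 in wild type and 11.22, 11.34 and 11.25 in LacZ/+. The lines were separated by 0.37, more than the range within either (0.16 and 0.12). The difference of −0.53 (SE 0.08, limma's adjusted p 0.00287) put the LacZ/+ signal at 69.1% of wild type (95% interval 61.0% to 78.3%).

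Myo5a, the motor, was at 10.13, 10.25 and 10.16 in wild type and at 10.03, 10.01 and 10.00 in LacZ/+. All LacZ/+ arrays were lower, by at least 0.10, yet the difference of −0.17 (SE 0.07) did not pass limma's test (adjusted p 0.192). Its 95% interval ran from −0.33 to −0.003, that is 79.7% to 99.8% of wild type. The within-array difference Rab27a minus Mlph shifted by 1.28 (SE 0.19) between the lines and that of Mlph minus Myo5a by −0.37 (SE 0.06), both without overlap of the arrays (exact permutation p 0.1 each).

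Sytl2, the second Rab27a effector measured, rose. Its log2 signal was 10.10, 9.96 and 10.24 in wild type and 11.07, 11.00 and 11.04 in LacZ/+. The LacZ/+ arrays lay within 0.07 of each other and at least 0.77 above every wild-type array. The difference of 0.94 (SE 0.09, limma's adjusted p 0.000249) corresponds to 192% of wild type (95% interval 167% to 221%). Set against Mlph on the same arrays, Sytl2 shifted by 1.47 (SE 0.14), while Rab27a minus Sytl2 shifted by −0.20 (SE 0.28) with overlapping arrays (exact permutation p 0.8), and by 0.08 without wild-type replicate 2.

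Mreg, whose loss restores coat colour in dilute, ashen and leaden mice, rose. Its log2 signal was 6.36, 6.94 and 6.02 in wild type and 7.73, 7.57 and 7.73 in LacZ/+. The wild-type arrays were spread over 0.92 and replicate 2 was again the highest, but all LacZ/+ arrays were higher still, by at least 0.63. The means were 6.44 ± 0.47 and 7.67 ± 0.09, a difference of 1.23 (SE 0.21, limma's adjusted p 0.00583) or 235% of wild type (95% interval 169% to 327%). Without wild-type replicate 2 the difference was 1.48 (adjusted p 0.000154), and it stayed past the threshold with each other array left out, at 1.02 to 1.29 (adjusted p up to 0.0338).

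Mreg was also the dimmest of the 7 in the wild type. Its mean there lay at the 60.8th percentile of all probe sets and rose to the 74.2nd in LacZ/+. The wild-type means of the other members lay between the 93.4th percentile (Sytl2) and the 99.0th (Mlph), and the LacZ/+ means between the 90.3rd (Rab38) and the 97.9th (Mlph). These percentiles place a line's mean among the means of all probe sets over the 6 arrays of both lines. They do not compare the abundance of one gene with another.

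**Figure D2:**
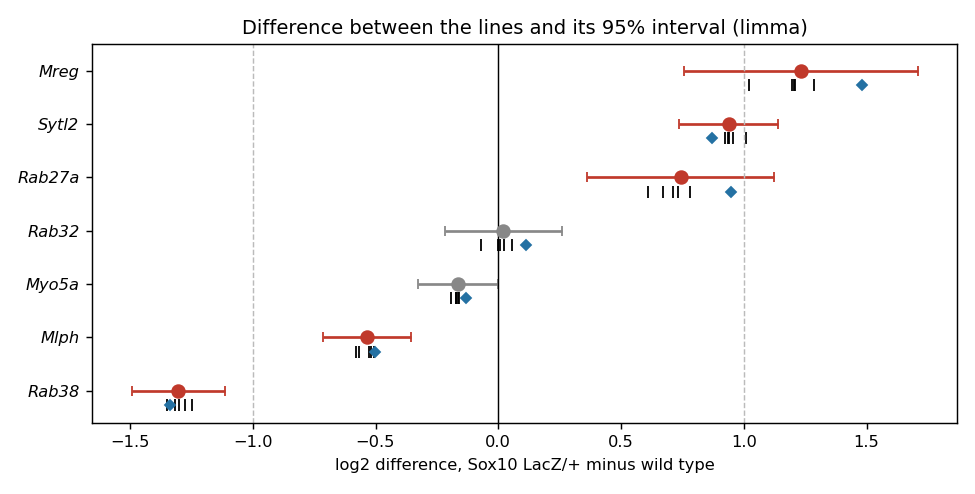
Log2 difference between the lines for each transport gene with its 95% confidence interval from limma (red where the adjusted p was below 0.05, grey otherwise; dashed lines at 2-fold). Small marks below each point are the differences with 1 array left out, the blue diamond being that without wild-type replicate 2, which is farthest from the rest for Mreg (1.48) and Rab27a (0.95).

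**Figure D3:**
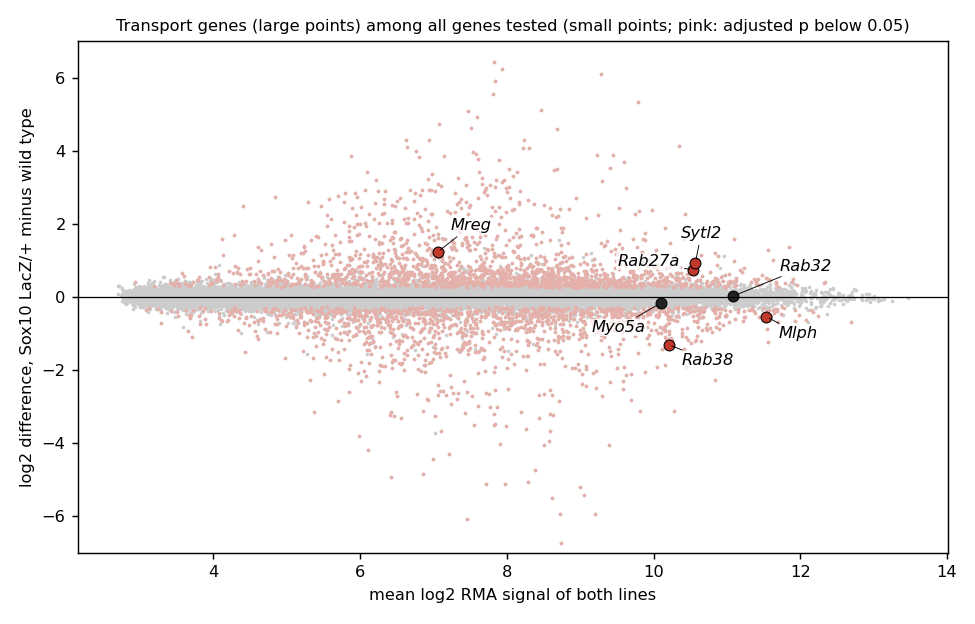
Log2 difference against the mean log2 signal of both lines for all 22180 genes (small points, pink where the adjusted p was below 0.05) with the transport genes as labelled large points (red where they passed). Mreg sits at lower signal than the other 6 genes, and the 7 lie on both sides of 0.

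Replicates of LacZ/+ were tighter than those of the wild type for 6 of the 7 genes, Rab38 being the exception, and for 68.2% of all genes. Wild-type replicate 2 exceeded the mean of its fellow arrays for 5 of the 7, by 0.75 for Mreg, 0.61 for Rab27a, 0.28 for Rab32 and 0.10 each for Mlph and Myo5a, and was lower for Rab38 (−0.10) and Sytl2 (−0.21). Over all genes that array was higher for 50.3%, and over 13 melanocyte marker genes for 11, among them Kit by 1.07. It was also higher for 9 of 11 keratinocyte and 9 of 11 leukocyte markers. The counts were 7 of 12 for endothelial and smooth muscle, 5 of 12 for fibroblast and 2 of 9 for Schwann cell markers. The part of that array's difference in the results was not tested beyond leaving it out.

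Genes whose array profile was most like that of Rab38 and Mreg, the members past 2-fold, were sought among 19236 named genes by the root mean square distance between profiles over the 6 arrays, each centred on its own mean. Nearest to Rab38 were Bscl2, the seipin gene of lipid droplet formation (distance 0.05), Stx3, which encodes the membrane fusion protein syntaxin 3 (0.07), and Gcnt1, a glycosyltransferase gene (0.08). Their differences were −1.24, −1.32 and −1.41. Nearest to Mreg were the phospholipid acyltransferase gene Mboat1 (0.06), Gga2, a clathrin adaptor gene of the trans-Golgi network (0.09), and the ceramide kinase gene Cerk (0.10). Like Mreg these 3 were highest in replicate 2 among the wild-type arrays, at 8.60, 8.94 and 10.69, with differences between the lines of 1.23, 1.18 and 1.20. The distances are a description, since most of each profile is the difference between the lines.

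The partners of these genes were followed in 6 lists with 63 measured members of 67 listed. In all, 5 rose, 6 fell and 52 did not pass, or 17.5% passed against 13.4% of all genes, with a median difference of −0.04 against 0.001. Adjusted p-values in these paragraphs are from limma over all genes. Without wild-type replicate 2, 10 rose and 8 fell, and without LacZ/+ replicate 2 or 3 only 2 rose. Over all genes, 2308 were higher and 1914 lower without wild-type replicate 2, against 1654 and 1313 with all arrays and 979 to 1013 and 779 to 804 without one of the LacZ/+ arrays.

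Among 11 relatives, regulators and effectors of Rab27, 1 rose, 1 fell and 9 did not pass. Rab27b, the close relative of Rab27a, rose from 5.63, 5.83 and 5.79 in wild type to 7.45, 7.31 and 7.37 in LacZ/+. The arrays were far apart, and the difference of 1.63 (SE 0.08, adjusted p 7.66e-06) exceeded that of Rab27a on the same arrays by 0.88 (SE 0.18, exact permutation p 0.1). Tbc1d10a, which encodes a GTPase-activating protein for Rab27a, fell by 0.52 (SE 0.12, adjusted p 0.0226), a call lost without wild-type replicate 1 or LacZ/+ replicate 1 or 3 (adjusted p up to 0.094, and 0.0134 to 0.094 over all alternatives). The other Slp family effectors Sytl1 (−0.01), Sytl3 (−0.04), Sytl4 (−0.11) and Sytl5 (−0.08) did not pass. Myrip, the Rab27a adaptor for another myosin, differed by −0.11 and Exph5 by −0.07, without passing.

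Of 7 genes listed as regulators and partners of Rab32 and Rab38, 1 fell and 6 did not pass. The 1 that fell, Rab7b, is itself a Rab gene, and whether it acts with Rab32 or Rab38 was not tested. Rab7b, a GTPase gene of transport between late endosomes and the trans-Golgi network, fell from 8.91, 7.41 and 8.70 in wild type to 5.45, 5.40 and 5.71 in LacZ/+. Wild-type replicate 2 was the low wild-type array here, and all LacZ/+ arrays were lower still. The difference was −2.82 (SE 0.35, adjusted p 0.00119), and −3.28 without that array. Hps1 (−0.004) and Hps4 (−0.29), the subunits of the BLOC-3 exchange factor that activates Rab32 and Rab38, did not pass. The dimmer second probe set of Hps1 differed by −0.27. The effector gene Ankrd27 (0.27, adjusted p 0.0743) and Sgsm2 (0.39, adjusted p 0.164) did not pass either. Both passed without wild-type replicate 2 (0.34 and 0.56, adjusted p 0.0164 and 0.0111).

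Rab proteins need a lipid anchor to sit on membranes. Of 5 measured genes of Rab prenylation, Rabggta, which encodes the alpha subunit of the geranylgeranyl transferase and is mutated in gunmetal mice, fell from 8.35, 8.29 and 8.17 to 7.74, 7.80 and 7.80, a difference of −0.49 (SE 0.08, adjusted p 0.00423). Rabggtb (0.18) and the escort protein genes Chm (−0.04) and Chml (0.28, adjusted p 0.0616) did not pass. Of 10 other Rab genes placed on melanosomes or their carriers, Rab36 rose by 0.48 (SE 0.08, adjusted p 0.00669) and 9 did not pass. Among the 9 were Rab1a (−0.15), Rab7 (0.05), Rab11b (−0.01), Rab8b (0.26, adjusted p 0.0646) and Rab17 (0.32, adjusted p 0.14). Rab8b and Rab17 passed without wild-type replicate 2 (adjusted p 0.0376 and 0.00748).

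Among 11 actin motor and nucleator genes, 2 fell, 1 rose and 8 did not pass. The falls were those of Spire1 and Fmn1, actin nucleators that build the tracks on which myosin Va works. Spire1 was at 9.51, 9.56 and 9.42 in wild type and at 8.95, 8.94 and 8.84 in LacZ/+, a difference of −0.59 (SE 0.08, adjusted p 0.00147). Fmn1 was at 9.21, 9.17 and 9.29 in wild type and at 8.64, 8.65 and 8.57 in LacZ/+, a difference of −0.60 (SE 0.07, adjusted p 0.00109), and its dimmer second probe set differed by −0.34. Both genes were lower on every LacZ/+ array and passed with each array left out. Myo6, a motor that runs towards the other end of actin filaments, rose by 0.34 (SE 0.07, adjusted p 0.0148), a call lost without LacZ/+ replicate 2 or 3 (adjusted p up to 0.0752, and 0.00837 to 0.0752 over all alternatives). The relatives of Myo5a, Myo5b (−0.07) and Myo5c (−0.07), did not pass and lay below the 40th percentile of signal in wild type. Spire2 (0.14), Myo7a (0.22, adjusted p 0.123; 0.0267 without wild-type replicate 2) and Myo10 (0.01) did not pass either.

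Of 19 genes of microtubule motors and their adaptors, 2 rose, 1 fell and 16 did not pass. Kif13a, the kinesin gene that positions recycling endosomes for delivery to melanosomes, fell from 8.57, 8.84 and 8.47 to 7.84, 7.92 and 7.83, a difference of −0.76 (SE 0.10, adjusted p 0.00206). Dctn1, the large subunit gene of dynactin, rose by 0.33 (SE 0.07, adjusted p 0.0229), but passed with an array left out only where that array was wild-type replicate 2 (adjusted p up to 0.0979, and 0.0137 to 0.0979 over all alternatives). Plekhm2, which links kinesin to organelles, rose by 0.43 (SE 0.08, adjusted p 0.0104) on its brighter probe set and differed by −0.25 on a dim second one. Their mean differed by 0.09 (adjusted p 0.711), and the call was also lost without LacZ/+ replicate 2 or 3 (adjusted p 0.0506 and 0.0569, and 0.00628 to 0.711 over all alternatives). The kinesin-1 heavy chain Kif5b (0.12), the dynein heavy chain Dync1h1 (−0.10) and Rilp (−0.22), which joins Rab7 to dynein, did not pass. Dync1i2 (−0.34, adjusted p 0.15) and Dctn2 (−0.29, adjusted p 0.0714) did not pass with all arrays. Both falls passed without wild-type replicate 2 (−0.50 and −0.35, adjusted p 0.00334 and 0.0185).

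**Figure D4:**
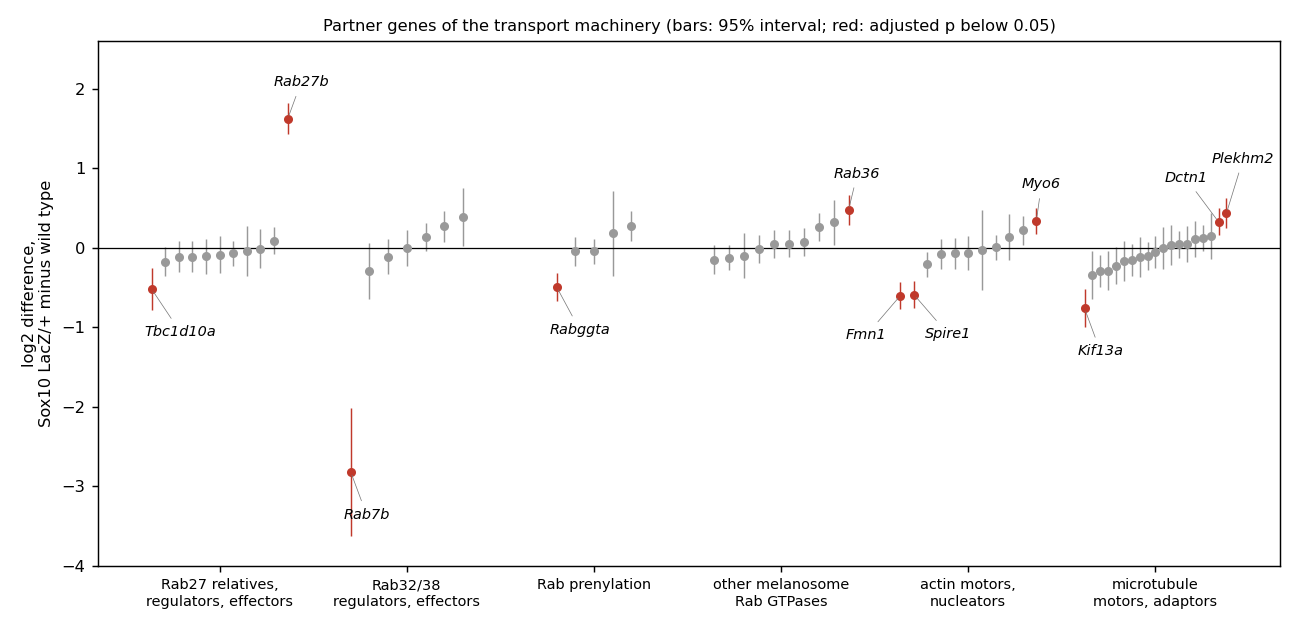
Log2 difference between the lines for the 63 partner genes in their 6 lists, each point with its 95% confidence interval from limma (red and named where the adjusted p was below 0.05). Of the listed genes, Rab27b (1.63) and Rab7b (−2.82) are past 2-fold, and the remaining 9 that passed differed by less.

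Position along the chromosome was compared through gene order in the GRCm38.p6 annotation. Rab38 and Sytl2 lie on the same chromosome with 11 measured genes between them, of which 2 rose, 1 fell and 8 did not pass. The stretch around them also held Tyr, 3 places before Rab38, which fell by 2.10, and the Wnt receptor gene Fzd4, 2 places after it, which rose by 4.08. The 10 measured genes on either side of Rab38 had a median difference of −0.01 (3 rose, 2 fell), and those around Sytl2 one of 0.03 (2 rose, 2 fell). Rab27a and Myo5a have 9 measured genes between them, of which 1 rose, and the medians of their 20 neighbours were −0.02 and −0.03. The neighbours of Mlph (0.02), Mreg (0.01) and Rab32 (−0.10) had medians within 0.10 of 0 as well. Between 10% and 30% of the neighbours of each member passed, against 13.4% of all genes. Rab27a and Myo5a are counted among each other's neighbours.

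**Figure D5:**
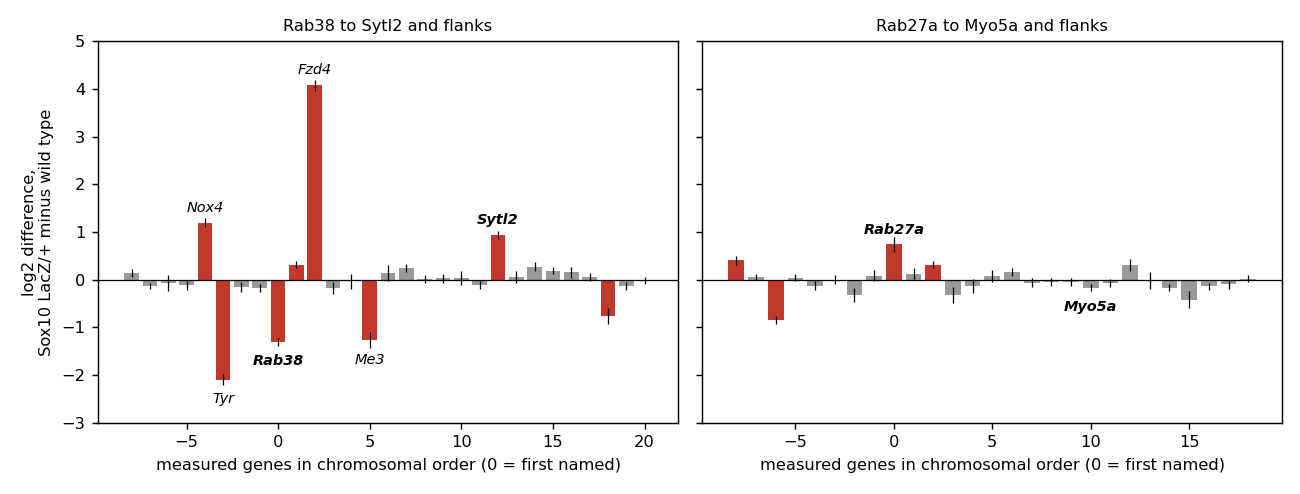
Log2 difference between the lines (bars, with the SE of limma as lines; red where the adjusted p was below 0.05) for measured genes in chromosomal order around Rab38 and Sytl2 (left) and Rab27a and Myo5a (right). Rab38 (−1.30) and Sytl2 (0.94) change in opposite directions within a stretch that also holds Nox4 (1.20), Tyr (−2.10), Fzd4 (4.08) and Me3 (−1.27). Most bars in both panels are close to 0.

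The labelled cell type was compared with marker genes. Over all genes 13.4% passed, 7.46% higher and 5.92% lower. Of 13 melanocyte markers none lay below the 40th percentile in either line, and 3 rose and 4 fell, led by Kit (2.29) and Tyr (−2.10). Mitf, which encodes the master regulator of melanocytes, rose by 0.67 (SE 0.07, adjusted p 0.000439). Of fibroblast markers 4 of 12 rose, Dcn by 5.92 and Pdgfrb by 4.08, the wild-type signal of Dcn being dim (34.1st percentile). The other 8 did not pass: Col1a1 (−0.20), Lum (−0.10), Fbln2 (−0.09), Dpt (−0.005), Col3a1 (0.10), Pi16 (0.13), Pdgfra (0.15) and Postn (1.10). Lum lay at the 12.2nd and 10.6th percentiles. The list's summed linear signal was 992 to 1260 on wild-type and 6200 to 6353 on LacZ/+ arrays. Bright genes weigh most in such a sum, and the LacZ/+ means of Dcn and Pdgfrb were 10.80 and 10.35. Endothelial and smooth muscle markers rose in 5 of 12, led by Acta2 (5.34) and Eng (1.01), with sums of 2606 to 3162 and 10497 to 11030. Eng already lay at the 97.5th percentile in wild type. The other 7, among them Pecam1 (0.14), Kdr (0.002), Tek (−0.07) and Myh11 (−0.06), did not pass. Schwann cell markers fell in 3 of 9, led by Gjc3 (−5.93) and S100b (−2.70, to a dim signal at the 39.1st percentile). Their sums were 5782 to 7317 and 2271 to 2292. The other 6 did not pass: Cdh19 (−0.82, limma's adjusted p 0.175), Gfap (−0.36, adjusted p 0.0566), Egr2 (−0.16), Mbp (−0.12), Mag (−0.08) and Sox2 (0.19). Of 11 leukocyte markers Cd68 (1.32) and Fcer1g (0.36) rose (sums 536 to 567 and 718 to 753), with Ptprc at the 16.4th and 18.1st percentiles. No detection calls were used, so the size of a difference to or from a dim signal depends on background. Of 11 keratinocyte markers limma called 0, while the unadjusted p was below 0.05 for 1 that was higher and 0 that were lower (sums 592 to 752 and 655 to 728). The part of such cells or programmes in the differences of the transport genes was not tested, and in bulk RNA fewer cells of a type and less RNA per cell cannot be told apart.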

How the data were processed

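Total RNA of 6 samples was hybridised to 1-colour Affymetrix arrays after biotin labelling. The deposited values are log2 signals made by the authors with RMA (background correction, normalisation between arrays, 1 value per probe set), per the submitters' processing notes, which also name Partek; software versions, settings and probe positions were not given in the sources used here. Array medians lay between 5.72 and 5.78 and 0 pairs of arrays were identical. Precision is limited by the 3 arrays per line.

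Of 41345 probe sets, 23521 had 1 gene symbol in the platform annotation, 1814 had several and 16010 were not listed; the 1082 genes with more than 1 probe set were represented by their brightest one (mean of the 6 arrays). LacZ/+ and wild-type arrays were set against each other in R 4.3.3 by limma 3.58.1 (lmFit, eBayes, 7.87 total degrees of freedom), without further scaling or filtering and without a replicate block. Differences are LacZ/+ minus wild type. In data simulated from these arrays, 86.5% of 200 genes changed 2-fold were recovered and 16% of 200 changed by 0.5 on the log2 scale. Only those 200 of 22180 genes were changed each time, with the same SD in both lines. The recovered shares hold for that setting, whereas 13.4% of all genes passed in the real data.

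Members, lists and pairs were chosen with earlier results of these data known. The text names all members, every partner that passed, up to 2 passing markers per list, Sox10, Mitf and the 3 nearest profiles of each member past 2-fold; other genes named were chosen after their values were seen.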

Additional observations from a re-analysis of the deposited data

How the results depend on the processing

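Rab38, Mlph, Sytl2 and Mreg kept their direction and their call under all alternatives run: arrays centred on their medians, quantile normalisation, dim genes left out (below the 40th percentile), probe sets averaged per gene, eBayes with trend or robust, replicate number as a block, and leaving out each array. With single arrays left out the differences ran from −1.35 to −1.25 for Rab38, −0.58 to −0.50 for Mlph, 0.87 to 1.01 for Sytl2, 1.02 to 1.48 for Mreg, −0.19 to −0.13 for Myo5a, −0.071 to 0.11 for Rab32 (below 0 without wild-type replicate 1) and 0.61 to 0.95 for Rab27a, which lost its call as described. Rab27a minus Sytl2 ran from −0.34 to 0.077, above 0 without wild-type replicate 2. At least 2-fold, 1 transport gene was higher and 1 lower, 1 partner was higher and 1 lower, and 430 of all genes were higher and 352 lower. At an adjusted p below 0.01, 888 of all genes were higher and 700 lower, and 2 partners higher. With dim genes left out 8 partners were higher. With single arrays left out, counts ran from 979 to 2308 (all genes, higher), 779 to 1914 (all genes, lower), 2 to 3 and 2 to 2 (transport genes) and 2 to 10 and 5 to 8 (partners). Median centring moved the median of all genes by 0.03.

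Replicate numbers were not treated as pairs: deviations of arrays with the same number correlated across genes at r of 0.007, 0.016 and −0.004, and wild-type replicate 1 correlated best with LacZ/+ replicate 3. With a replicate block, 3 transport genes were higher and 2 lower, 4 partners were higher and 6 lower (Dctn1 lost its call, adjusted p 0.0635), and 1381 of all genes were higher and 1131 lower. Arrays have no read depth. Among the transport and partner genes past 2-fold, the wild-type signals of Mreg and Rab27b lay at the 60.8th and 50.0th percentiles and the LacZ/+ signal of Rab7b at the 46.0th. The transcript part that each probe set covers was not stated.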
